A study of Rattus norvegicus with 9 samples.

Results

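Fap, Penk, Ogn, Serpinf1 and Ntrk3 are 5 rat genes of connective tissue and nerve signalling, followed here through 9 fetal lungs. They were chosen by their values in these same libraries, where they were high in some hypoplastic lungs, so their levels and fold changes are a description and carry no test. The 5 genes are part of 17465 in the deposited table, and all 5 were among the 12966 that passed the filter on low counts. For Fap this rested partly on its high values: only hypoplastic libraries 1 and 2 and control libraries 1 and 2 reached the bound. Total RNA of whole lungs was sequenced after removal of ribosomal RNA. The 3 groups were control lungs with no treatment, hypoplastic lungs, and hypoplastic lungs that received AFSC-EV, extracellular vesicles of amniotic fluid stem cells, with 3 libraries each. All lungs came from Sprague-Dawley rats, and the series title names oligohydramnios, a shortage of amniotic fluid, as what made the lungs small. The labels used here state no fetal age, litter, vesicle dose or route, so p-values measure the spread between these libraries only.

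The stroma of a fetal lung is made of fibroblasts, muscle and vessel wall cells that lay down collagen and proteoglycans and exchange signals with the growing epithelium and nerves. Fap, fibroblast activation protein, is a cell-surface protease that cuts after proline and marks activated fibroblasts. Ogn, osteoglycin, is a small leucine-rich proteoglycan that binds collagen, and Serpinf1, pigment epithelium-derived factor, is a secreted serpin without protease-inhibiting activity that restrains vessel growth. Penk, proenkephalin, is the precursor of the enkephalin opioid peptides and is made by neurons and by embryonic mesenchyme, and Ntrk3 encodes TrkC, the receptor of neurotrophin-3.

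Estimated counts per library summed to between 56922779 and 88243188. The lung label matched the epithelial markers: Nkx2-1, the lung transcription factor, lay between 265 and 442 CPM (each gene's share of its library's counts, scaled to a common total) in the 9 libraries. Sftpc, surfactant protein C, lay at 645 to 951 CPM in controls, 292 to 496 in hypoplastic and 567 to 758 in treated lungs. By Xist and Ddx3y, control libraries 1 and 2 were male and library 3 female, while hypoplastic and treated libraries 1 and 2 were female and library 3 male. CPM here use TMM scaling, a method that puts libraries of different composition on a common scale.

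Promoters of the genes are shown as a description. The genes were chosen by their values in these libraries, and shared regulation was not tested. RefSeq (build GRCr8) gave the 250 bases before the start for 3 of the 5 genes, each on the minus strand: Fap at chr3:67616092-67616341, Ogn at chr17:15258996-15259245 and Serpinf1 at chr10:60760899-60761148. Capitals mark each match to the E-box (CANNTG, bound by Twist-type factors among others) and to the TEAD site (GGAATG), on either strand.
Fap: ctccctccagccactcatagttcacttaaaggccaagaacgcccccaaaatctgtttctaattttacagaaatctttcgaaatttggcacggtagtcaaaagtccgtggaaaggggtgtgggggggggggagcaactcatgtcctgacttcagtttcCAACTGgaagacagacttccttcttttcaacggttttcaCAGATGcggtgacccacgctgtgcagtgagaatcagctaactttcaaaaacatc
Ogn: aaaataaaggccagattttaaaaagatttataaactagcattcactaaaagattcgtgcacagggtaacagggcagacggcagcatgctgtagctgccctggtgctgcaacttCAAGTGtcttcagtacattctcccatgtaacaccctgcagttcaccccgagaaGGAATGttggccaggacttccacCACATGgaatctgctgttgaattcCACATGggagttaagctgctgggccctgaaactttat
Serpinf1: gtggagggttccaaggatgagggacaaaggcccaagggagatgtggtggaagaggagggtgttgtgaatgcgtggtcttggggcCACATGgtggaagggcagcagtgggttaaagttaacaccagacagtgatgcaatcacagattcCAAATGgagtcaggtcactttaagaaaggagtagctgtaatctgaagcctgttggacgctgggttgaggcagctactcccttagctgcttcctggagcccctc
The Fap window held 2 E-boxes, that of Ogn 3 and that of Serpinf1 2, and 65.5% of 33469 rat promoter windows of this length hold at least 1. The TEAD letters were found in Ogn only among the 3, 84 to 79 bases before the start, and occur in 12.1% of all windows. All 3 windows held the SMAD letters CAGAC once (42.9% of all windows). Ogn also had the TATA letters TATAAA on both strands, overlapping each other and 224 to 217 bases before the start (12.9% of all windows). None of the 3 held the homeodomain letters TAATTA (4.86% of all windows) or the AP-1 letters TGANTCA (6.34%). Base composition was ordinary: GC was 47.2% for Fap, 46% for Ogn and 53.2% for Serpinf1, beside a median of 51.2% over all windows.

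Fap had the widest relative range of the 5. Its level was 0.153, 0.214 and 0.0271 CPM in control libraries 1 to 3, then 1.31, 4.61 and 0.0362 CPM in the hypoplastic libraries and 0.0658, 0.0478 and 0.132 CPM in the treated ones. Hypoplastic libraries 1 and 2 stood above all 7 others, and hypoplastic library 3 lay inside the control range, so the groups overlapped. Library 1 was 9.98 times the control mean and library 2 35.1 times. Counts behind these levels were small outside the high libraries: 86 and 282 in hypoplastic libraries 1 and 2, against 2 in hypoplastic library 3 and 2 to 12 in the 6 control and treated libraries. With exact Poisson 95% intervals, which cover counting error only, hypoplastic library 3 was between 0.00438 and 0.131 CPM and library 1 between 1.05 and 1.62.

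Ogn was the member with the deepest counts, 981 to 5097 per library. Its level was 21.8, 17.5 and 26.5 CPM in the control libraries, 53.3, 83.2 and 24.7 CPM in the hypoplastic libraries and 17.3, 12.2 and 20.3 CPM in the treated ones. Hypoplastic libraries 1 and 2 were 2.43 and 3.8 times the control mean, and library 3 was within the control range. All 3 treated libraries lay below all 3 hypoplastic ones, but they overlapped with the controls. RefSeq places Ogn inside Cenpp, a centromere protein gene on the opposite strand. Cenpp was not analysed here, and whether reads were counted by strand is not given. Whether exons of both genes overlap was not checked, so any share of Cenpp reads in the level of Ogn is unknown.

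Serpinf1 was the only one of the 5 that was above every control in all 3 hypoplastic libraries. Its level was 5.13, 3.48 and 3.29 CPM in controls, 8.33, 18.2 and 5.46 CPM in hypoplastic libraries and 2.77, 4.24 and 3.47 CPM in treated ones. The margin of hypoplastic library 3 over control library 1 was within counting error, with exact Poisson 95% intervals of 4.85 to 6.10 and 4.60 to 5.71 CPM, and scaled by library totals alone both measured 5.21 CPM. Hypoplastic libraries 1 and 2 were 2.10 and 4.59 times the control mean. Every treated library was below every hypoplastic one.

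Penk was flat in 6 libraries and high in 2. It measured 0.322, 0.428 and 0.353 CPM in controls, 4.50, 11.2 and 0.145 CPM in hypoplastic libraries and 0.303, 0.323 and 0.294 CPM in treated ones. Hypoplastic library 1 reached 12.2 times and library 2 30.4 times the control mean, while library 3 was the lowest of all 9 libraries. The counts were 295 and 683 in the 2 high libraries, 8 in hypoplastic library 3 and 20 to 27 in the other 6. The exact Poisson 95% interval of Penk in hypoplastic library 3, 0.0625 to 0.285 CPM, overlapped those of these 6.

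Ntrk3 behaved like Penk with a smaller gap between the 2 high libraries. Its level was 0.368, 0.285 and 0.217 CPM in controls, 3.66, 5.11 and 0.127 CPM in hypoplastic libraries and 0.316, 0.215 and 0.279 CPM in treated ones. Hypoplastic libraries 1 and 2 were 12.6 and 17.6 times the control mean, and library 3, with 7 counts, was again the lowest of the 9. The other 6 libraries had 16 to 24 counts. The exact Poisson 95% interval of Ntrk3 in hypoplastic library 3, 0.0509 to 0.261 CPM, overlapped those of these 6. RefSeq also places a non-coding RNA gene across part of Ntrk3 that was not analysed here.

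**Figure D1:**
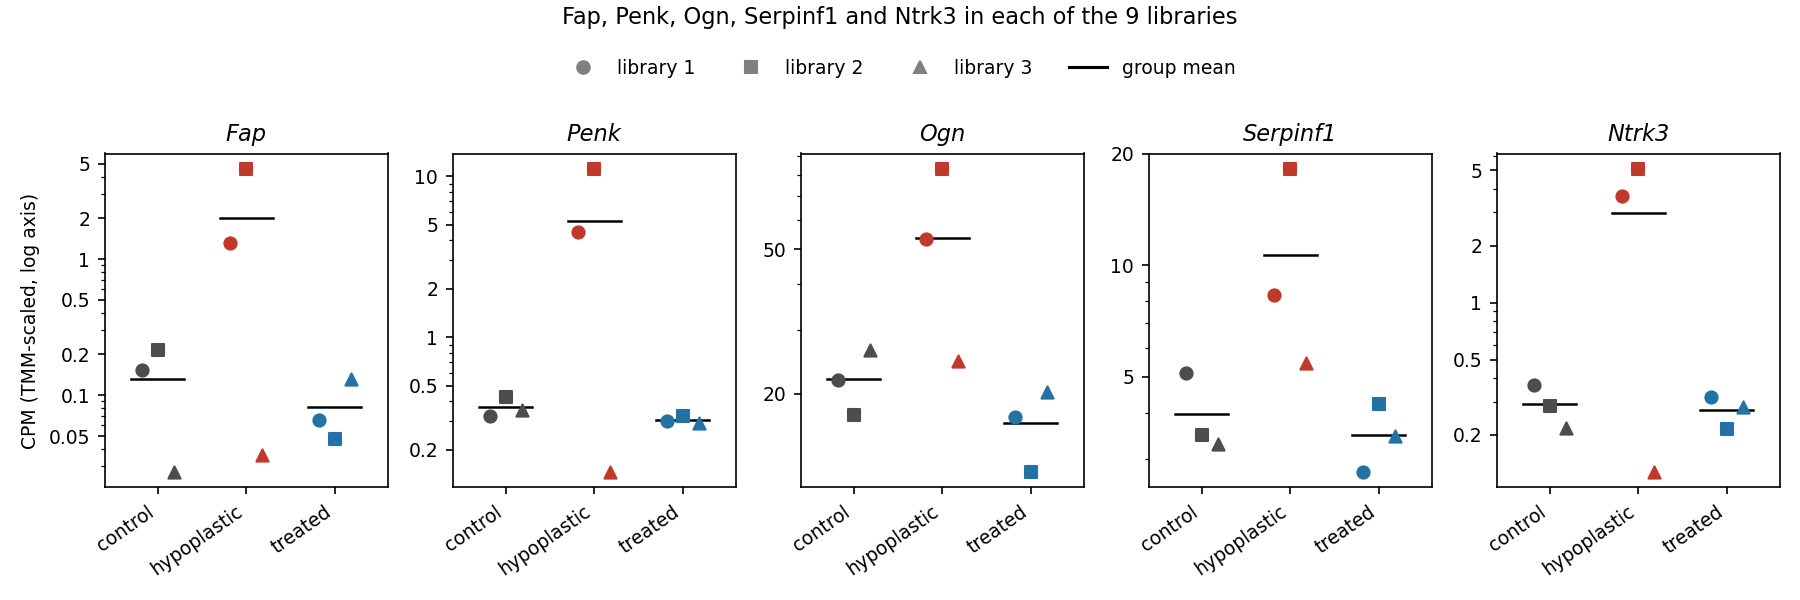
CPM (TMM-scaled, log axis) of the 5 genes in 9 libraries, with the shape of a point giving the library number and the line the mean of 3 libraries. In every panel hypoplastic library 2 is highest and hypoplastic library 1 next, while hypoplastic library 3 lies below the controls for Penk and Ntrk3 (0.145 and 0.127 CPM).

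The order of the high libraries was the same for all 5 genes. Hypoplastic library 2 exceeded library 1 by a ratio of 3.52 for Fap, 2.48 for Penk, 2.19 for Serpinf1, 1.56 for Ogn and 1.40 for Ntrk3. One hypoplastic lung was not high, and the group SD was above or close to the group mean for 3 genes: 1.99 ± 2.36 CPM (SD, n = 3) for Fap, 5.27 ± 5.54 for Penk and 2.97 ± 2.56 for Ntrk3. Ogn measured 53.7 ± 29.3 CPM and Serpinf1 10.7 ± 6.70 CPM. In controls the values were 0.131 ± 0.0953 CPM for Fap, 0.367 ± 0.0548 for Penk, 21.9 ± 4.48 for Ogn, 3.97 ± 1.02 for Serpinf1 and 0.290 ± 0.0755 for Ntrk3. In whole-lung RNA, more cells that make a gene and more RNA per cell cannot be told apart.

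Treated lungs overlapped with control lungs for all 5 genes, for Penk only under TMM scaling (by library totals alone treated lungs reached 0.318 CPM and controls began at 0.326). Treated lungs measured 0.0819 ± 0.0444 CPM (SD, n = 3) for Fap, 0.307 ± 0.0152 for Penk, 16.6 ± 4.11 for Ogn, 3.49 ± 0.736 for Serpinf1 and 0.270 ± 0.0510 for Ntrk3. The order of the groups by mean was hypoplastic, control, treated for each gene. The means of control and treated lungs lay within 1 SD of the control group for Fap, Serpinf1 and Ntrk3 and slightly beyond it for Penk and Ogn.

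In the fit over all 12966 genes, the log2 fold change of hypoplastic against control lungs was 3.99 (SE 1.17) for Fap, 3.85 (SE 1.03) for Penk, 3.37 (SE 0.91) for Ntrk3, 1.43 (SE 0.41) for Serpinf1 and 1.29 (SE 0.38) for Ogn. Treated against hypoplastic lungs gave -4.62 (SE 1.23) for Fap, -4.10 (SE 1.03) for Penk, -3.47 (SE 0.90) for Ntrk3, -1.70 (SE 0.38) for Ogn and -1.61 (SE 0.41) for Serpinf1. Both comparisons use the same 3 hypoplastic libraries, so the second is not separate evidence of the first. Treated against control lungs gave -0.63 (SE 1.92) for Fap, -0.40 (SE 0.38) for Ogn, -0.25 (SE 1.32) for Penk, -0.18 (SE 0.41) for Serpinf1 and -0.10 (SE 1.19) for Ntrk3. The median over all genes was 0.01, -0.01 and 0.00 in these comparisons.

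The edgeR quasi-likelihood test called 0 of the 5 genes in any comparison at an adjusted p under 0.05. Over all genes it called 0.00771% in hypoplastic against control lungs, which is Spp1 alone (osteopontin, named here after its value was seen), and 0% in each of the other comparisons. DESeq2 called 5 of 5 in hypoplastic against control lungs (1.56% of all genes), 5 of 5 in treated against hypoplastic lungs (0.132%) and 0 of 5 in treated against control lungs (0.108%). Library values did not overlap for Serpinf1 in hypoplastic over control lungs, as for 7.67% of all genes, and for Ogn and Serpinf1 in treated below hypoplastic lungs, as for 4.74%. The genes were chosen on these contrasts, so the counts are given without a reading.

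Single libraries moved these values. Without hypoplastic library 3, edgeR called Fap, Penk and Ntrk3 in hypoplastic against control lungs, where 0.342% of all genes were called, and these 3 and Ogn in treated against hypoplastic lungs (0.334%). The genes were chosen for high values in some hypoplastic lungs, and library 3 was the one without them. These calls are thus given without a reading. Without hypoplastic library 2, the log2 fold change of hypoplastic against control lungs was 2.49 for Fap, 2.70 for Penk, 2.75 for Ntrk3, 0.83 for Ogn and 0.80 for Serpinf1. The sign was the same for all 5 genes in both comparisons whichever library was left out.

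**Figure D2:**
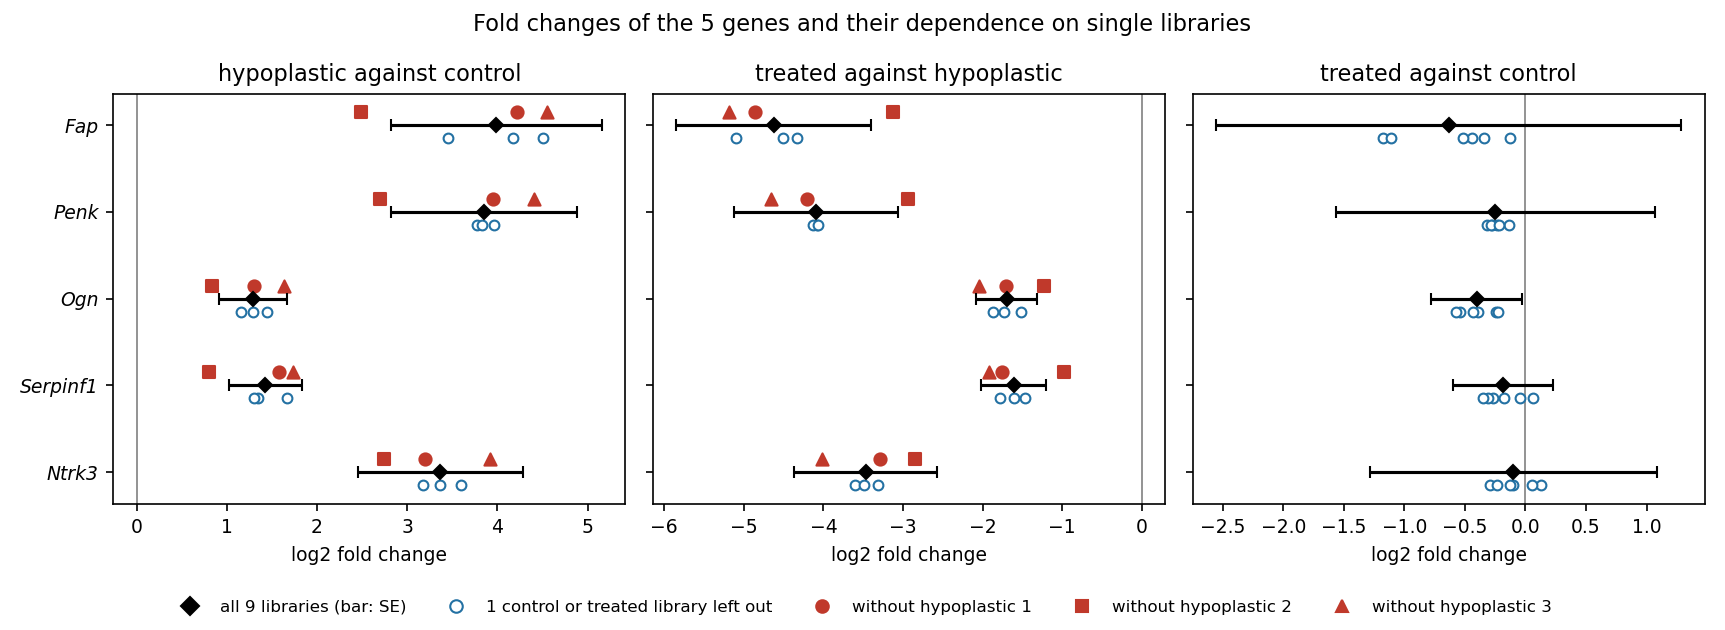
Log2 fold change of the 5 genes in the 3 comparisons, with all 9 libraries (diamonds, bars are SE) and with 1 library left out (open circles for a control or treated library, filled shapes for a hypoplastic library). Values stay on 1 side of 0 in the first 2 panels, with the smallest changes without hypoplastic library 2 (Fap 2.49). In the third panel they are below 0 for Fap, Penk and Ogn and on both sides of 0 for Serpinf1 and Ntrk3.

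Sex went along with the pattern. Both high hypoplastic lungs were female and the third was male. Among females, the mean of hypoplastic libraries 1 and 2 against the single control was 2.96 against 0.0271 CPM for Fap, 7.83 against 0.353 for Penk, 4.39 against 0.217 for Ntrk3, 68.3 against 26.5 for Ogn and 13.3 against 3.29 for Serpinf1. The 2 female treated lungs averaged 0.0568 CPM for Fap, 0.313 for Penk and 0.266 for Ntrk3, which is the level of the other libraries. Among males, the 1 hypoplastic lung was below both controls for Fap, Penk and Ntrk3 and above both for Ogn and Serpinf1. For Fap, Penk and Ntrk3 its exact Poisson 95% intervals overlapped those of both male controls. With 1 male hypoplastic lung, sex and the single library cannot be told apart.

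The profiles of the 5 genes were alike over the 9 libraries, where Pearson's r of log2 CPM had a median of 0.874 over the 10 pairs and ranged from 0.83 to 0.984. This likeness came with the 2 high libraries. Over the 7 others the median r was -0.12, with 6 of 10 pairs below 0. Penk with Ntrk3 (r = 0.742), Fap with Ntrk3 (0.695) and Fap with Penk (0.470) were the highest pairs there. These genes had only 2 to 27 counts in the 7 libraries, and hypoplastic library 3 was the lowest for Penk and Ntrk3. How far these r rest on that library was not tested. The points share library depth and scaling, and no p is given.

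Among 11352 genes with a mean of at least 1 CPM, the genes most like each member over the 9 libraries were named. For Penk they were Ebf3 (r = 0.991), Ntrk3 (0.984) and Prss35 (0.976), and for Ntrk3 they were Ebf3 (0.984), Penk (0.984) and Prss35 (0.984). Ebf3, a transcription factor of mesenchyme and neurons, measured 0.639, 0.592 and 0.529 CPM in controls, 3.86, 7.76 and 0.260 in hypoplastic and 0.648, 0.687 and 0.508 in treated libraries. Fap was most like Ankrd1 (r = 0.959), a muscle protein gene, then Ntrk3 (0.953) and B3galnt1 (0.948). Ogn was most like Abraxas1 (0.963), Ptn (0.949) and Sfrp2 (0.947), and Serpinf1 was most like Nmt2 (0.968), Pdlim5 (0.925) and Cdh13 (0.924). Ptn, the heparin-binding growth factor pleiotrophin, measured 26.0 and 48.6 CPM in hypoplastic libraries 1 and 2, against 9.52 to 19.7 CPM in the other 7. Sfrp2, a secreted modulator of Wnt signalling, measured 26.1 and 60.2 CPM there, against 6.10 to 14.4 elsewhere. By mean r over the 5 genes the order was Prss35 (0.918), Ebf3 (0.915), Abraxas1 (0.914), Ankrd1 (0.901), Actn2 (0.901), Fmo1 (0.898), Foxc1 (0.895) and B3galnt1 (0.881).

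Partners of Fap did not follow it. Dpp4, which lies near Fap on the chromosome and is its closest relative, measured 25, 28.8 and 22.3 CPM in controls, 20.3, 22.4 and 16.6 in hypoplastic and 20.3, 20.1 and 16.4 in treated libraries. Prep, another protease that cuts after proline, lay between 44.5 and 57.3 CPM in all 9. Of 8 tested relatives of the prolyl peptidase family, 2 were higher and 6 lower in hypoplastic than control lungs (median log2 fold change -0.23). Neither edgeR nor DESeq2 called any of them, with 2 up and 2 down at an unadjusted edgeR p under 0.05. Over all genes, 6.67% were up and 5.69% down at this threshold in hypoplastic against control lungs, and 3.56% down in treated against hypoplastic lungs, which is the background for the counts of this kind that follow. Among 6 tested substrates and inhibitors of Fap, 5 were higher (median 0.53) and 0 were called by either tool, or at the unadjusted threshold. Col1a1, the main fibrillar collagen, stood at 5820 CPM in hypoplastic library 2 but at 1420 in library 1, within the control range of 599 to 1860.

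Ogn belongs to a proteoglycan family whose members differed between the 2 high libraries. Dcn, decorin, measured 1.84, 2.25 and 3.36 CPM in controls, 13.3, 147 and 1.97 in hypoplastic and 4.82, 4 and 4.69 in treated libraries. Lum, lumican, was uneven in the same way, at 6.28 CPM in library 1 and 75.1 in library 2, with 0.109 in hypoplastic library 3 and 0.303 to 1.48 elsewhere. Aspn, asporin, whose gene lies near Ogn, was nearly even in the 2 libraries at 8.64 and 9.50 CPM, with 0.584 to 1.84 in the 7 others. Omd, osteomodulin, lies between Ogn and Aspn and was high in library 1 only, at 2.36 CPM against 0.212 in library 2. Bgn, biglycan, lay at 210, 383 and 230 CPM in hypoplastic and 71.4 to 265 in control libraries, and Fmod, fibromodulin, lay between 33.3 and 69.3 CPM in all 9.

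Of the 9 tested members of the proteoglycan family besides Ogn, 9 were higher in hypoplastic than control lungs (median log2 fold change 0.71) and 7 were lower in treated than hypoplastic lungs (median -0.61). No member passed edgeR's test (smallest adjusted p = 0.3165 in the first comparison), with 3 up in the first comparison and 5 down in the second at an unadjusted p under 0.05. DESeq2 called Aspn, Dcn and Lum in the first comparison, and 0 in the second. Nol8 and Iars1, on the other side of Ogn, were flat, at 13.0 to 21.5 and 41.7 to 52.4 CPM.

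Few genes around Penk in its pathway were high in both libraries. Of the opioid peptides and receptors, 4 besides Penk passed the filter, and 2 were higher and 2 lower in hypoplastic lungs (median log2 fold change -0.24). Pnoc, the precursor of the related peptide nociceptin, had 8 and 37 counts in hypoplastic libraries 1 and 2 and 0 to 6 in each of the others, and did not pass the filter. Oprm1, the mu receptor, was at 0 in 8 libraries and had 4 counts in hypoplastic library 1. Oprd1, the delta receptor for enkephalins, lay between 0.0915 and 0.446 CPM, lowest in hypoplastic library 1. Oprk1, the kappa receptor, ranged from 0.0132 to 1.94 CPM with no order by group. Pcsk1, which cuts the precursor, was at 4.18 CPM in hypoplastic library 2 but at 0.961 in library 1, within the control range. Cpe, which trims the cut peptides, was at 36.3 and 45.7 CPM in these libraries against 17.9 to 31.5 CPM in the others. Over 12 processing genes, 6 were higher and 6 lower in hypoplastic than control lungs (median 0.00), and 10 were lower in treated than hypoplastic lungs (median -0.37), with 3 down at an unadjusted p under 0.05. Neither tool called a gene of either list, and in hypoplastic against control lungs edgeR gave 1 up and 1 down at an unadjusted p under 0.05 in the processing list and 0 in the other.

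Most receptors and targets of Serpinf1 named here did not share its pattern. Pnpla2, the lipase that binds it, lay between 35.8 and 46.8 CPM in all 9 libraries. Plxdc2, a proposed receptor, lay between 45.8 and 57.4 CPM, while Plxdc1, its relative, was highest in hypoplastic library 2 at 1.91 CPM, against 0.486 to 1.39 in the others. Vegfa, the vessel growth factor whose action Serpinf1 opposes, lay between 358 and 535 CPM, and its receptor Kdr lay between 148 and 209. Serpinf2, the neighbouring serpin gene, lay at 0.213, 0.359 and 0.235 CPM in hypoplastic libraries, within a span of 0.0838 to 0.658 over all 9. Serping1, another serpin of the list, stood at 116 CPM in hypoplastic library 2 but at 20.8 in library 1, within the control range of 9.37 to 34.4. Of 12 tested genes besides Serpinf1, 8 were higher and 4 lower in hypoplastic lungs (median 0.17), and 0 were called by either tool or at an unadjusted p under 0.05.

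Ntrk3 was accompanied by other neurotrophin genes in the same libraries. Ntf3, its ligand neurotrophin-3, measured 0.412 and 0.457 CPM in hypoplastic libraries 1 and 2 (27 and 28 counts), against 0.0178 to 0.176 CPM in the 7 others. Ntrk2, which encodes TrkB, measured 7.64, 39.1 and 3.06 CPM in hypoplastic libraries, against 1.97 to 2.47 in controls and 1.53 to 5.19 in treated lungs. Ngfr, the shared p75 receptor, measured 1.35, 3.08 and 0.735 CPM in hypoplastic libraries and 0.323 to 0.624 in the control and treated ones, without overlap. Bdnf differed in being nearly even over the hypoplastic libraries. It lay at 1.39, 1.40 and 1.29 CPM there, above the controls at 0.535 to 1.15. The treated lungs, at 0.263 to 1.44 CPM, overlapped with the hypoplastic ones. Sort1, a sorting receptor, lay at 237, 242 and 281 CPM in hypoplastic libraries and 269 to 296 in the others.

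Of 15 tested neurotrophin genes besides Ntrk3, 11 were higher and 4 lower in hypoplastic than control lungs (median log2 fold change 0.27), and in treated against hypoplastic lungs 4 were higher and 11 lower (median -0.11). EdgeR called 0 (smallest adjusted p = 0.3165 in the first comparison), with 4 up and 1 down at an unadjusted p under 0.05. DESeq2 called Ngfr in the first comparison.

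**Figure D3:**
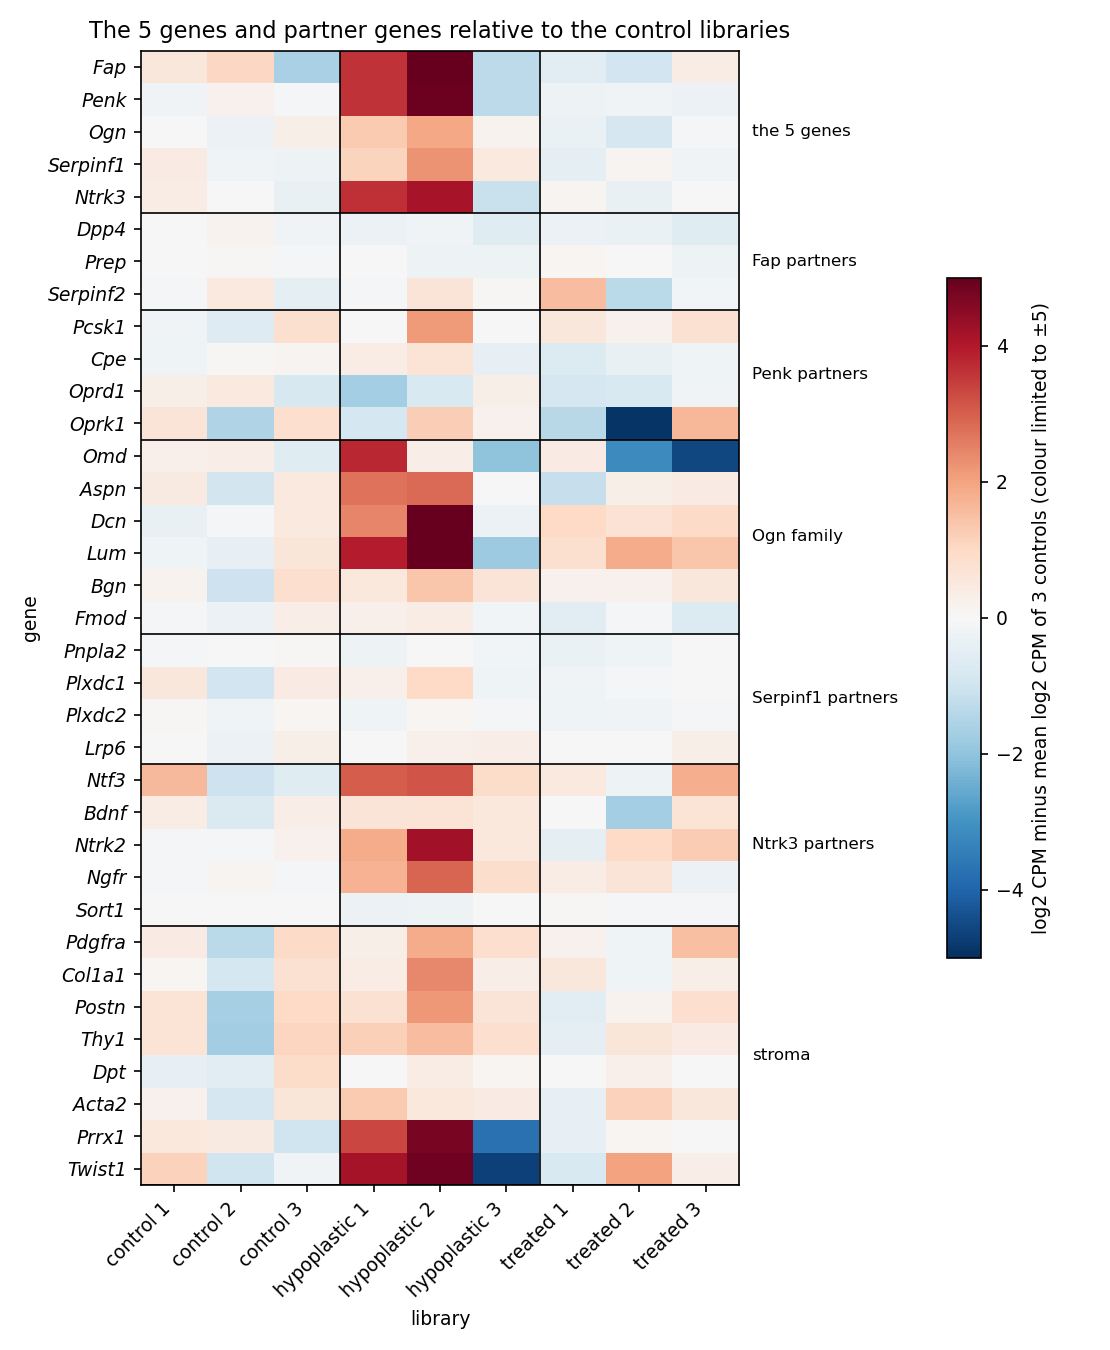
Log2 CPM of the 5 genes, their partner genes and stromal genes in 9 libraries, minus the mean of the 3 control libraries (colour, limited to ±5). Fap, Penk and Ntrk3 share dark columns at hypoplastic libraries 1 and 2 with Dcn, Lum, Aspn, Ntf3, Prrx1 and Twist1, while Dpp4, Pnpla2 and Sort1 stay pale.

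Of the general fibroblast genes, some shared the order of libraries and others did not. Pdgfra, a receptor of lung fibroblasts, measured 121, 35.6 and 178 CPM in controls, 111, 333 and 164 in hypoplastic and 105, 78.3 and 263 in treated libraries. Hypoplastic library 1 thus lay within the control range, and library 2 alone above it. Postn, periostin, gave 160, 416 and 145 CPM in hypoplastic libraries against 29.7 to 185 in controls, so again library 2 alone stood above them. Thy1 gave 12.9, 16.5 and 10.2 against 1.68 to 11.8, with the same 2 libraries on top as for the 5 genes. Dpt, dermatopontin of adventitial fibroblasts, and Wt1 of mesothelium overlapped between all groups, at 23.7 to 64.2 and 1.63 to 19.2 CPM. Acta2, smooth muscle actin, was highest in hypoplastic library 1 at 306 CPM, with 181 in library 2 and 278 in treated library 2.

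Within the list of 17 tested matrix fibroblast genes, 14 were higher and 3 lower in hypoplastic than control lungs (median log2 fold change 0.80), and 0 passed edgeR's or DESeq2's test, with 4 up at an unadjusted p under 0.05. The summed level of the list was 4695 to 10809 CPM in controls, 7926, 20224 and 8846 in hypoplastic libraries and 6711 to 9077 in treated ones. Only Prrx1 and Twist1 of this list were at least 2-fold above every control and treated library in both hypoplastic libraries 1 and 2. Prrx1, a transcription factor of limb and craniofacial mesenchyme, measured 3.43, 9.19 and 0.0181 CPM in hypoplastic libraries and 0.163 to 0.491 in the other 6. Twist1, a factor that binds E-boxes, measured 3.40 and 5.49 CPM, was at 0 in hypoplastic library 3, and lay between 0.0892 and 0.767 in the other 6. Of 16 tested adventitial genes, 14 were higher (median 0.31) and DESeq2 called Dcn alone. Of 10 tested smooth muscle genes 10 were higher (median 0.50), and of 10 pericyte genes 9 (median 0.26), with 0 called by either tool. The other 2 stromal lists were not mostly higher. Of 8 tested lipofibroblast genes 3 were higher and 5 lower (median -0.14), and of 7 mesothelial genes 4 were higher and 3 lower (median 0.06). EdgeR called 0 in both, and DESeq2 called Fabp4 of the lipofibroblast list.

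Markers of other tissues moved with the 5 genes. Heart muscle genes summed to 287.5 CPM in hypoplastic library 1 and 142.3 in library 2, against 25.4 in library 3, 27.7 to 53.8 in controls and 29.2 to 38.7 in treated lungs. Myh6, the atrial myosin heavy chain, measured 70.9 and 28.2 CPM in these 2 libraries and 0.0136 to 3.12 in the 7 others. Of 9 tested heart genes, 5 were at least 2-fold above every control and treated library in both, 7 were higher in hypoplastic than control lungs (median 3.19), and edgeR called 0, with 6 up at an unadjusted p under 0.05. DESeq2 called Tnni3, a heart troponin, in this comparison and in treated against hypoplastic lungs. Nppa, the atrial peptide, was at 0 in hypoplastic libraries 1 and 3 and at 4.55 CPM in library 2. Within the pair, the sum of heart genes was higher in library 1 and the 5 genes of interest higher in library 2.

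Of the nerve and Schwann cell genes, 10 of 11 tested were higher in hypoplastic than control lungs (median log2 fold change 1.44) and 9 were lower in treated than hypoplastic lungs (median -1.30). Sox10, the Schwann cell factor, measured 2.26, 2.20 and 0.127 CPM in hypoplastic libraries against 0.0407 to 0.729 in the other 6, and Tubb3, a neuronal tubulin, measured 4.52, 3.61 and 0.271 against 0.383 to 0.908. Of the 11, 5 were at least 2-fold above every control and treated library in both, Sox10, Tubb3, Prph and Gap43 among them. The list's sum was 136.2, 158.3 and 174.5 CPM in hypoplastic libraries, 141.9 to 174.6 in controls and 131.9 to 209.4 in treated lungs, and most of it was Erbb3, at 102 to 175 CPM over all 9 libraries. EdgeR called 0 of them, with 7 up at an unadjusted p under 0.05, and DESeq2 called Tubb3 and Prph.

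Cartilage and skeletal muscle gave further patterns. The sum of cartilage genes was high in hypoplastic library 1 only, at 1429 CPM, 542.7 in library 2, 684.1 in library 3, 251.3 to 659.9 in controls and 570.2 to 721.7 in treated lungs. Comp, a cartilage matrix protein, measured 9.45 CPM in library 1 and 0.178 to 0.359 in the 8 others. Col11a1, a minor fibrillar collagen, was above all control and treated libraries in all 3 hypoplastic ones, at 89.1, 12.2 and 14 CPM against 3.92 to 8.90. Of 10 tested cartilage genes, 9 were higher in hypoplastic than control lungs (median 1.67), with 6 up at an unadjusted p under 0.05 and 0 called by either tool. None of the 10 was 2-fold above the controls and treated lungs in both libraries. Skeletal muscle genes summed to 15.3, 17.2 and 13.6 CPM in hypoplastic libraries, against 9.27 to 10.9 in controls and 10.4 to 15 in treated ones, and 2 of 4 tested (Myh3 and Ckm) were 2-fold up in both. The summed levels of lung epithelium and neutrophil lists in all 3 hypoplastic lungs, library 3 included, lay outside the control range. The 16 epithelial genes summed to 3623 to 4108 CPM in hypoplastic lungs, 4457 to 7177 in controls and 4275 to 4948 in treated lungs. Of these 16, 14 were lower in hypoplastic than control lungs (median -0.48), 8 were down at an unadjusted p under 0.05, edgeR called 0 and DESeq2 called Sftpc and Sftpb. Neutrophil genes summed to 130.9, 189.9 and 108.3 CPM in hypoplastic lungs, 22.6 to 29.0 in controls and 47.2 to 108.2 in treated lungs. All 9 tested were higher in hypoplastic than control lungs (median 2.77), with 6 up at an unadjusted p under 0.05, 0 called by edgeR and 5 by DESeq2. The part of heart, nerve, cartilage, skeletal muscle, epithelial and blood cells in the levels of the 5 genes was not tested.

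Over all 12905 tested genes with a symbol, 88 (0.682%) were at least 2-fold above every control and treated library in both hypoplastic libraries 1 and 2, a bound chosen after the values were seen. Fap, Penk, Ogn and Ntrk3 were among them, and Serpinf1 was not, since hypoplastic library 1 at 8.33 CPM was less than 2-fold above control library 1. For hypoplastic libraries 1 and 3 the number was 6 (0.0465%), and for libraries 2 and 3 it was 8 (0.062%). At 4-fold the set held 29 genes (0.225%), with Fap, Penk and Ntrk3 inside, against 0 and 1 for the other pairs. Of the 88, 40 were higher in library 2, as the members were, and 48 higher in library 1, which include Myh6, Myl7, Actc1, Sox10 and Tubb3.

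**Figure D4:**
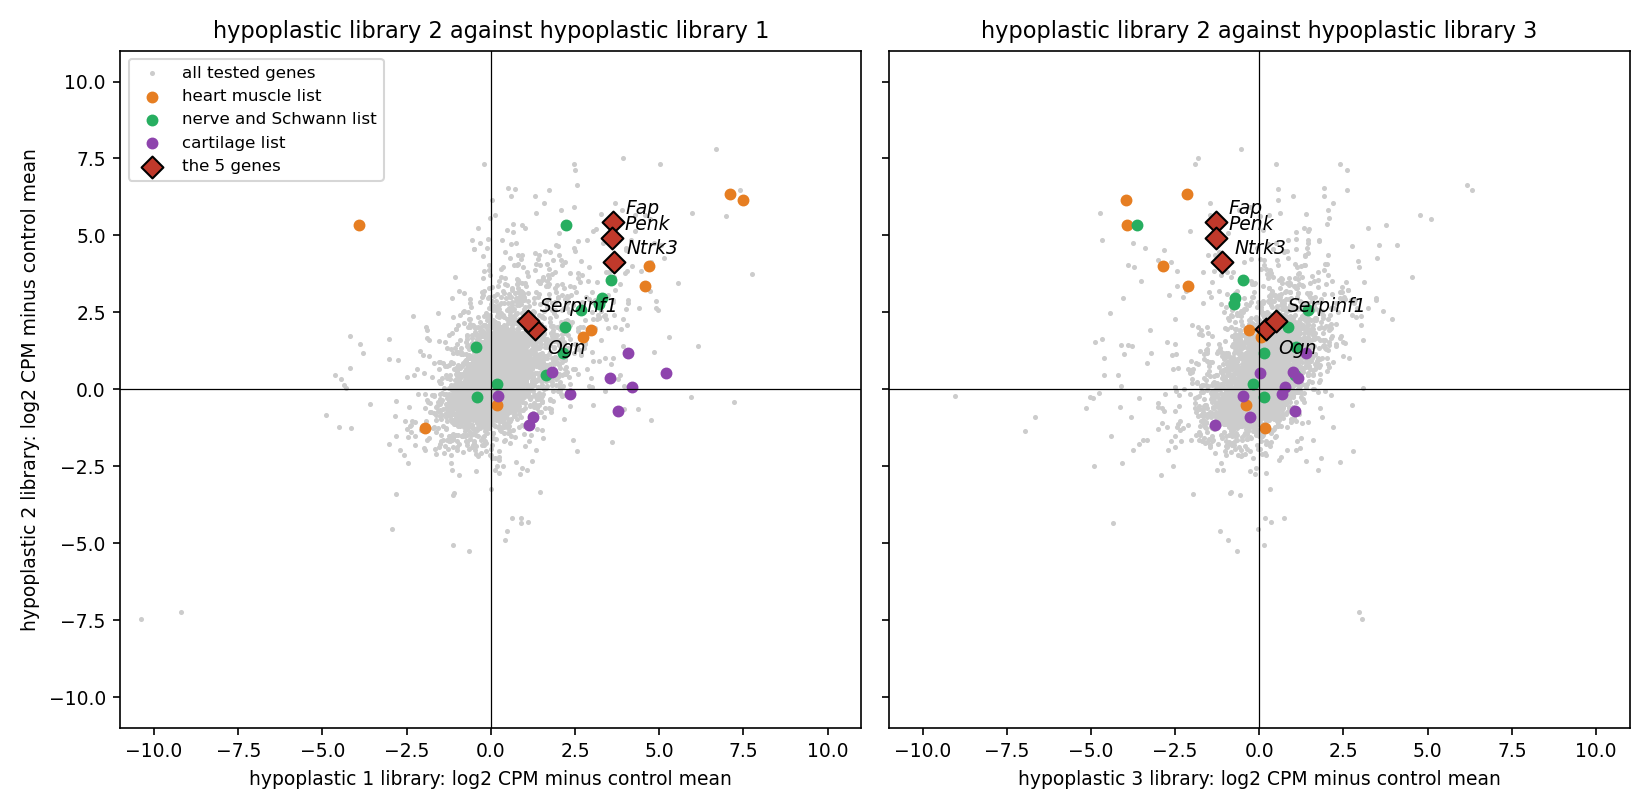
Each point is a tested gene, with its log2 CPM minus the mean of the 3 control libraries in hypoplastic library 2 (vertical) against hypoplastic library 1 (left, horizontal) and library 3 (right, horizontal); diamonds are the 5 genes and colours marker lists. Left, the 5 genes lie in the upper right with heart and nerve genes; right, Fap, Penk and Ntrk3 lie left of 0, as library 3 had them at or below control levels (Penk 0.145 CPM).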

How the data were processed

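The authors' deposited table gives estimated counts per NCBI Gene ID (not whole in most cells: 19.5% of values above 0 are), and the submitters' processing notes name rn7 and DESeq2; the aligner and counter are not stated there. Estimated counts were rounded; the design had been planned for counts. Symbols came from RefSeq (99.1% of IDs matched), used for names and neighbours only. Rows without a symbol held 1.12% of counts.

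EdgeR 4.0.16 (R 4.3.3) fitted all 9 libraries in 1 quasi-likelihood model with TMM scaling and filterByExpr (minimum count 10), with Benjamini-Hochberg adjustment over 12966 genes and a threshold of 0.05. The residual degrees of freedom were 6 and the common biological coefficient of variation 0.253. Alternatives were DESeq2 1.42.0, limma 3.58.1 (voom), other scalings and filters, sex and replicate terms, and each library left out. Scripts were tested on simulated data. No 2 libraries were near-identical (smallest chi-square per degree of freedom 132.1).

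The 5 genes and all gene lists were chosen with earlier results of these data known. Named were the 5 genes, their likest genes by Pearson's r of log2 CPM (prior count 0.5), a preset choice of partners, the highest gene of other lists and, after values were seen, further examples from the lists. Some genes of the lists are not reported here by name.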

Additional observations from a re-analysis of the deposited data

Results flagged for a closer look

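In female and male lungs, the differences between hypoplastic and control means of Fap, Penk and Ntrk3 had opposite signs, which was not tested. Hypoplastic minus control means were 2.93 CPM for Fap, 7.47 CPM for Penk and 4.17 CPM for Ntrk3 in females, with 2 hypoplastic lungs above 1 control. In males, with 1 hypoplastic lung below 2 controls, they were -0.147 CPM for Fap, -0.23 CPM for Penk and -0.1998 CPM for Ntrk3. That male hypoplastic library held 2, 8 and 7 counts of these genes. Its exact Poisson 95% intervals overlapped those of both male controls for each. Overlap between intervals of single libraries cannot show whether the male differences were within counting error, which was not tested.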

How the results depend on the processing

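Of 229 fold changes of the 5 genes under alternative settings, 227 moved by less than the SD between libraries, which is large here, and 226 kept their direction. Unlogged, hypoplastic against control moved by over 1.5 times for Fap, Penk and Ntrk3 under limma voom and with a sex term. In log2 the values were 2.77, 2.52 and 2.34 under voom and 3.18, 2.83 and 2.57 with the sex term. Treated against hypoplastic moved likewise under voom (log2 values -3.12, -2.76 and -2.43). The 3 that changed sign were all of treated against control lungs, where values lay near 0: Serpinf1 without control library 1 (0.06), and Ntrk3 without control library 1 (0.13) and without treated library 2. A sex term moved treated against control to -0.98 for Penk and -0.69 for Ntrk3. Genes called in hypoplastic against control lungs numbered 1 in the reported fit, 202 by DESeq2, 4 with only the 6 libraries compared, and 0 to 45 with 1 library left out. Treated against hypoplastic lungs gave 17 by DESeq2 and 0 to 44 with 1 library left out, and treated against control lungs 14 and 0 to 1. The highest of these counts, 45 and 44, were without hypoplastic library 3. With the replicate number as a block, 2 genes were called in hypoplastic against control lungs. Same-numbered libraries did not deviate together (r from -0.26 to 0.195, 3 of 9 pairs above 0.1, 0 libraries closest to their own number). With 3 libraries a group, this cannot exclude a shared litter. The labels state no litter, so whether the numbers pair libraries is unknown. The median likeness of the 5 profiles was 0.517 by Spearman's rho and 0.711 to 0.933 with 1 library left out. Fap, Penk and Ntrk3 gave no value under a filter of 1 CPM in 3 libraries, and Fap none in fits of the treated libraries with 1 other group alone. The causes were not tested. Counts of 2 to 27 outside the high libraries limit Fap, Penk and Ntrk3.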

Other observations

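Genes of other kinds shared the 2 high libraries. Agtr2, the type 2 angiotensin receptor, measured 2.96 and 4.26 CPM in hypoplastic libraries 1 and 2, with 0.0181 in library 3 and 0.0598 to 0.268 in control and treated lungs. Foxc1, a mesenchymal forkhead factor, measured 4.44, 5.83 and 0.235 CPM in hypoplastic lungs against 0.295 to 0.672 in the other 6. Ebf2, a relative of Ebf3, measured 1.39, 5.29 and 0.0543 CPM in hypoplastic lungs and 0 to 0.169 elsewhere. Fmo1, a flavin monooxygenase, was uneven within the pair, at 2.55 and 20.9 CPM, with 0.264 to 0.749 in the 7 others. Gdf10, a growth factor of the BMP family, had the opposite order, at 8.81 and 2.02 CPM, against 0.0892 to 0.338 elsewhere. These 5 genes were chosen after their values were seen.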
